A study of Mus musculus with 20 samples.

Results

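The 10 genes described here, all of which had a row among the 29956 rows of the deposited gene tables, are Ctgf, Cyr61, Ankrd1, Amotl2 and Axl, which are widely used as readouts of the coactivators YAP and TAZ, and Tagln, Acta2, Cnn1, Tpm1 and Myl9, which encode parts of the actin-based contractile apparatus. They were chosen by name, under the older symbols Ctgf (now Ccn2) and Cyr61 (now Ccn1), with earlier results of these data known. Poly(A) RNA-seq had been done on melb-a cells, a cultured line of mouse melanoblasts, the precursors of pigment cells, labelled as wild type. The 20 libraries fall into 5 groups of 4: cells with one of the lentiviral hairpins against Hira (shHIRA I or shHIRA II), cells with a hairpin against luciferase (shLuciferase) or with a scrambled hairpin (shScramble), and parental cells that were not transduced. All groups share the growth medium with 10% serum, 10 ng/ml SCF and 40 pM Fgf2. Per the protocol in the labels, virus with 8 µg/ml polybrene was left on the cells for 16 h and infected cells were selected in 1 µg/ml puromycin, so the transduced groups share a selection that parental cells did not pass through. The 4 replicates of each group are described as independent, without saying what was repeated, and the p-values measure the spread between these libraries.

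HIRA is a histone chaperone that places the variant H3.3 into chromatin outside of DNA replication. YAP and TAZ are coactivators that are held in the cytoplasm when the kinases of the Hippo pathway phosphorylate them. In the nucleus they bind the TEAD factors and switch on genes such as Ctgf and Cyr61. Their activity follows cell shape, spreading and the tension of actin fibres. Many contractile genes are switched on by another factor, SRF, together with myocardin or the myocardin-related factors, which sense the pool of free actin.

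Hira, the gene that the hairpins target, was lower with shHIRA I and was not measurably lower where the label was shHIRA II. Its level was 32.9, 19.6, 22.1 and 22.9 TPM in replicates 1 to 4 of shHIRA I and 41.5, 35.1, 50.4 and 49.2 TPM in those labelled shHIRA II. The control libraries gave 57.8, 46.6, 55.6 and 40.1 TPM with shLuciferase and 51.7, 36.1, 42.7 and 47.8 TPM with shScramble, and parental cells 46.7, 52.7, 44.9 and 62.8 TPM. TPM is a level per transcript length, relative to the other transcripts of the library. The mean was 24.4 ± 5.85 TPM with shHIRA I and 47.3 ± 7.53 TPM over the control libraries (SD, n = 4 and 8; two-sided exact permutation test, p = 0.00404, adjusted p = 0.00808, the smallest p being 0.00404). The libraries labelled shHIRA II averaged 44.1 ± 7.14 TPM (exact permutation test against the same controls, p = 0.509, adjusted p = 0.509). In edgeR's quasi-likelihood test Hira had a log2 fold change of -0.19 in them (adjusted p = 0.306), and of -0.46 (adjusted p = 0.0394) when the mitochondrial share entered the model. The name shHIRA II stands here for the libraries so labelled. Of the 31-base words of annotated Hira transcripts, 43.1% also occur in Gm28539, so a part of the Hira reads may have been shared with it.

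Library totals ran from 14952948 to 20669874 estimated counts, and 13541 genes had enough counts to be tested. All 10 genes passed the filter. In control and parental libraries Ankrd1 held at most 1 estimated count and Myl9 at most 7.3. These genes thus passed through the shHIRA libraries, where they were high, and could hardly have been called lower there. Cnn1 was about as low in those libraries, at most at 8.5 counts, apart from shLuciferase replicate 2. It too passed the filter through the shHIRA libraries. Of the 10 melanoblast markers examined, 9 reached 1 TPM in some library and Ednrb in none, and Sox10 varied between 0.00016 and 11.2 TPM. The melanoblast markers summed to 975 to 2990 TPM with shHIRA I and 661 to 1060 TPM with shHIRA II, against 2700 to 4290 TPM with shLuciferase, 2480 to 4060 TPM with shScramble and 2550 to 3640 TPM in parental cells. Tyrp1, Mlana and Dct were the largest parts of these sums. Pax3 did not follow them: its mean was 58.4 TPM with shHIRA I and 43.9 TPM with shHIRA II. It was 56.4 TPM with shLuciferase, 43.4 TPM with shScramble and 39.4 TPM in parental cells. Mitochondrial genes held 5.70% ± 3.44 of counts with shHIRA I and 4.19% ± 0.876 with shHIRA II, against 8.10% ± 1.22 with control hairpins (SD, n = 4, 4 and 8; exact permutation tests, adjusted p = 0.161 for shHIRA I and 0.00808 for shHIRA II). Calls that changed when the mitochondrial share entered the model, or without the pair of libraries where it was lowest (shHIRA I replicate 3 and shHIRA II replicate 2), are named with the genes. What part the marker levels had in the results was not tested. In bulk RNA, more cells of a type and more RNA per cell cannot be told apart.

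Windows of 250 bases before the annotated start were held by the RefSeq promoter table (GRCm38.p6) for 8 of the 10 genes, all but Ctgf and Tagln. A TEAD core, GGAATG or its reverse complement CATTCC, occurred in 6 of the 8 windows, and in 12.6% of 32851 windows of the same length. The CArG box, the element that SRF binds, was searched for only as CC, 6 bases of A or T, and GG. In that exact form it occurred in 1 of the 8 windows, that of Myl9, and in 1.47% of all windows. Forms that differ by 1 base were not counted, such as ccctatatgg and ccttgtttgg in the window of Acta2. By these exact forms none of the 8 windows held both motifs, and that of Cnn1 held neither. The genes were chosen by name as YAP and TAZ readouts or contractile genes, so these shares describe that choice and not the changes measured here. The RefSeq start is not always the outermost one: in GENCODE M21, 250 of the 250 bases for Ankrd1, 217 for Acta2, 193 for Tpm1 and 136 for Amotl2 lie in an annotated UTR, and the TEAD matches of these 4 genes lie inside the annotated gene. The whole window of Cyr61, whose gene product is a matricellular protein, reads as follows, 5′ to 3′ on the minus strand, with the TEAD core in capitals (chr3:145649986-145650235).
Cyr61: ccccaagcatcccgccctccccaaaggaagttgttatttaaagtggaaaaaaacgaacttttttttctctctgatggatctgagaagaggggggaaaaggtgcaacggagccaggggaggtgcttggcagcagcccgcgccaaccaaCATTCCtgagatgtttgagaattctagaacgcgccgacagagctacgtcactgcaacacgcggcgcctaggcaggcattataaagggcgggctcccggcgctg
Around the other matches, 30 bases are given, again with the motif in capitals: the TEAD core in 5 genes, of which Ankrd1 has a pair of matches, and the CArG box in Myl9.
Ankrd1, chr19:36120037-36120066, minus strand: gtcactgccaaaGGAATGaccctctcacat
Ankrd1, chr19:36119950-36119979, minus strand: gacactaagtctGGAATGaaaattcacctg
Amotl2, chr9:102717727-102717756, plus strand: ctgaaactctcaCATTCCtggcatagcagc
Axl, chr7:25788949-25788978, minus strand: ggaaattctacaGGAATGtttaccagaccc
Acta2, chr19:34255502-34255531, minus strand: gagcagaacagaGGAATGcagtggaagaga
Tpm1, chr9:67049252-67049281, minus strand: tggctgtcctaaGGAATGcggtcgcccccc
Myl9, chr2:156775293-156775322, plus strand: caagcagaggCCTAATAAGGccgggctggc
A match describes these letters and is not evidence of binding, and the strand is that of the gene.

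Against the control hairpins, the genes moved almost wholly in 1 direction. The change with the Hira hairpins was taken as the average of shHIRA I and shHIRA II, although Hira itself was measurably lower in shHIRA I alone, set against the average of shLuciferase and shScramble. By this measure 9 of the 10 genes were higher, 0 were lower and Cnn1 was not called (edgeR's quasi-likelihood test, Benjamini-Hochberg adjusted p under 0.05 over all genes tested). Of all 13541 genes tested, 14.2% were called higher in this comparison and 15.1% lower. The median log2 fold change of the 10 genes was 1.30, beside 0.03 for all genes tested. The largest fitted changes were those of Ankrd1, Myl9 and Ctgf, which ranked 10, 71 and 96 among the 13541 genes. Of these, Ankrd1 and Myl9 had passed the filter through the shHIRA libraries alone, so their calls and ranks are weak support. Taken apart, shHIRA I had 9 of the 10 genes higher and 0 lower, with a median of 1.28, beside 10.9% of all genes higher and 8.87% lower. The libraries labelled shHIRA II had 8 higher and 0 lower, with a median of 1.18, beside 15.7% of all genes higher and 16.7% lower. Of all calls for the Hira hairpins, 48.5% were higher. The share was 50.5% with RLE scaling, 56.8% with upper-quartile scaling and 61.9% to 69% in 3 limma fits, which change the table and the test together. In levels, all 8 shHIRA libraries stood above all 8 control libraries for 2 of the 10 genes, Ctgf and Amotl2, while 2.24% of all genes did so. Without shLuciferase replicate 2, a control library described further on, this held for 6 of the 10, beside 3.49% of all genes. That library was singled out by high values of Tagln, Acta2 and Cnn1 themselves. Leaving it out therefore favours these genes, and the 2 shares are not a like comparison. Cnn1, counted among the 6, had also passed the filter through the shHIRA libraries.

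**Figure D1:**
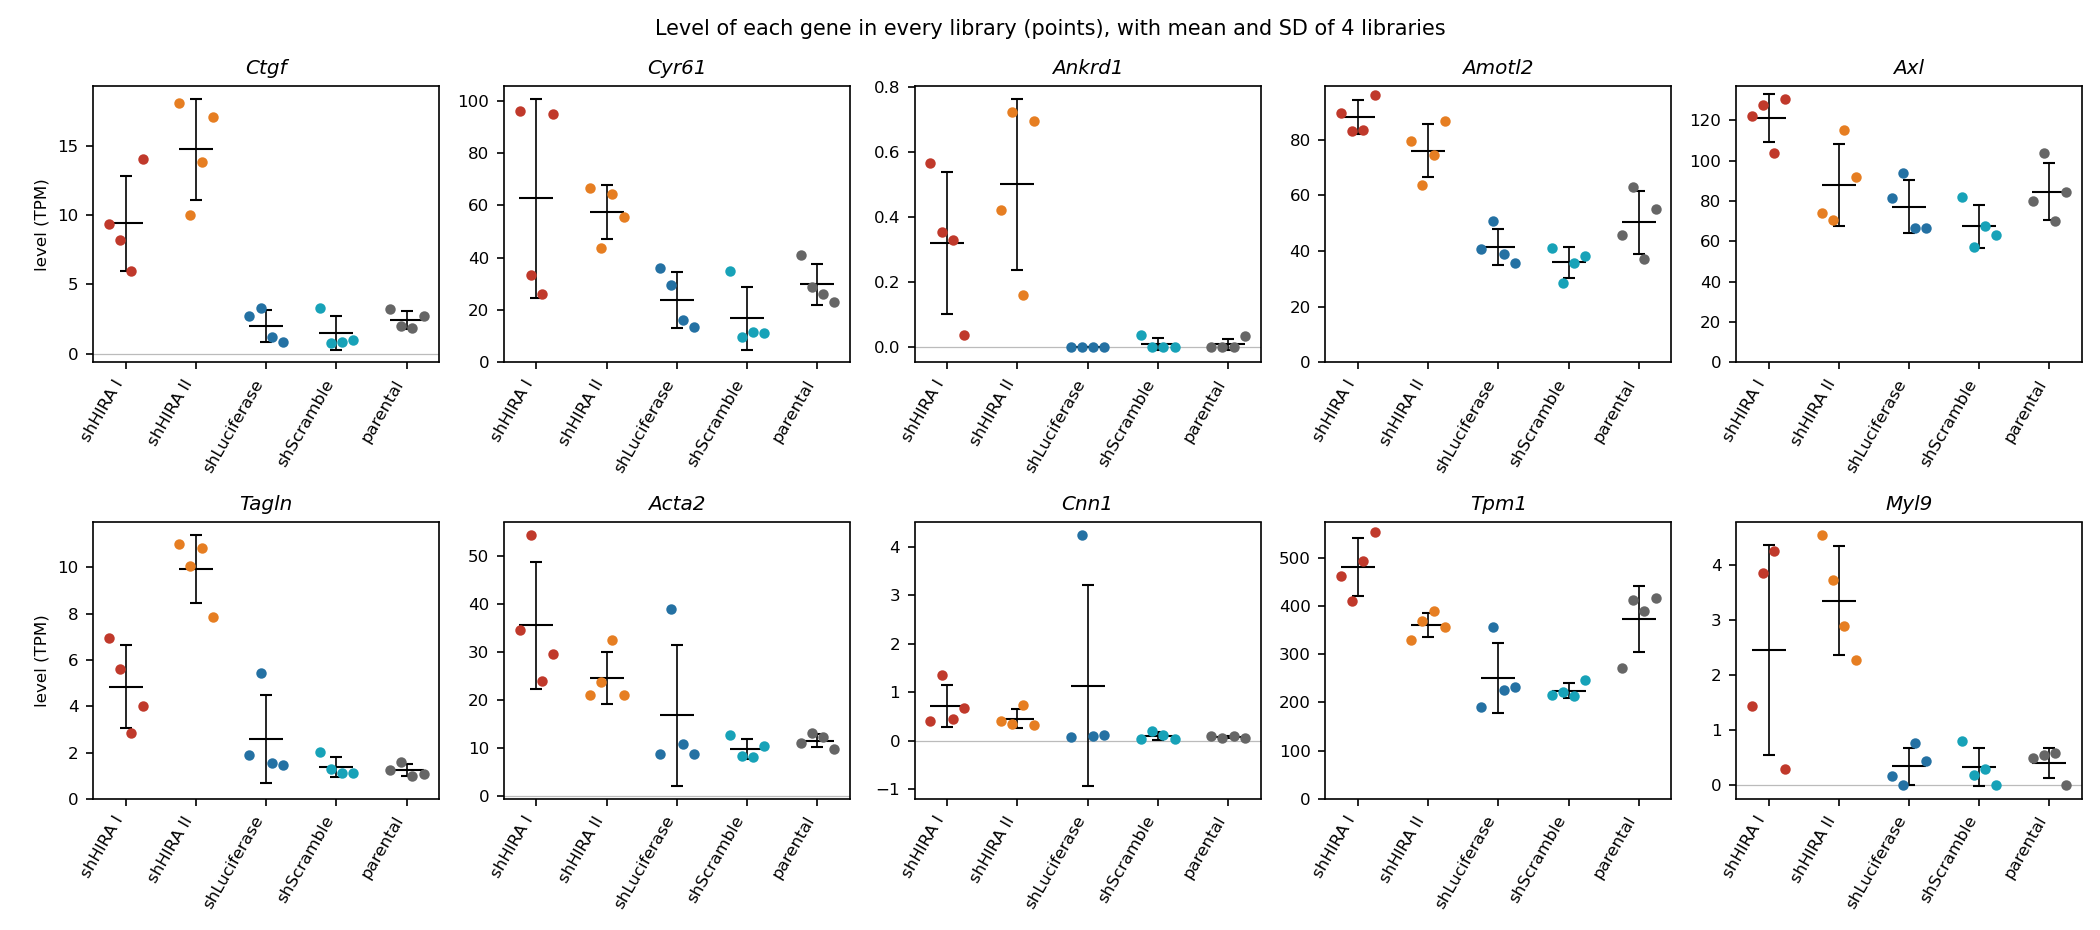
Level in TPM on the y axis of each of the 10 genes in every library (points, replicates 1 to 4 from left to right), with the mean and SD of the 4 libraries as a bar and whiskers. Ctgf and Amotl2 separate the shHIRA libraries from all control libraries, and in shLuciferase a single point stands high for Tagln (5.43 TPM), Acta2 (38.9 TPM) and Cnn1 (4.24 TPM).

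Among the YAP and TAZ targets, Ctgf separated the shHIRA libraries from all others. Ctgf encodes connective tissue growth factor, a secreted protein of the CCN family that binds integrins and growth factors (chromosome 10, 24595442 to 24598683, plus strand, GRCm38, protein-coding, ENSMUSG00000019997.11). It stood at 9.40, 8.23, 5.97 and 14.1 TPM with shHIRA I and at 18.2, 10.1, 13.9 and 17.1 TPM with shHIRA II. The control libraries gave 2.72, 3.27, 1.22 and 0.819 TPM with shLuciferase and 3.30, 0.764, 0.850 and 0.999 TPM with shScramble, and parental cells 3.24, 1.96, 1.83 and 2.68 TPM. The lowest shHIRA library, at 5.97 TPM, was thus above the highest control library, at 3.30 TPM, and above every parental library. With the Hira hairpins Ctgf was 6.41-fold higher (log2 fold change 2.68, SE 0.32, adjusted p = 8.67e-06). It was 5.07-fold higher with shHIRA I (adjusted p = 0.000146) and 8.11-fold higher with shHIRA II (adjusted p = 8.93e-06). Of the 31-base words of its transcripts, 19.5% also occur in Gm15270, a gene on the opposite strand. Whether the authors' quantification used strand was not given in the sources used here, so reads of a gene and of its antisense partner cannot be told apart.

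Cyr61, the sister gene of Ctgf with a related secreted product (chromosome 3, 145646976 to 145649981, minus strand, GRCm38), rose 2.80-fold and varied widely within shHIRA I. Its level was 96.3, 33.2, 26.0 and 95.1 TPM with shHIRA I and 66.6, 43.8, 64.4 and 55.7 TPM with shHIRA II. With shLuciferase it was 36.1, 29.5, 16.2 and 13.3 TPM, with shScramble 34.9, 9.70, 11.3 and 11.1 TPM, and in parental cells 41.0, 28.7, 26.0 and 23.2 TPM. All 4 shHIRA II libraries and 2 of the 4 shHIRA I libraries stood above every control library, and the other 2 lay within the control range. Replicate 1 was the highest library of its group for Cyr61 in all 5 groups. The log2 fold change of Cyr61 was 1.49 with the Hira hairpins (SE 0.30, adjusted p = 0.00124), with 1.52 (SE 0.35) for shHIRA I and 1.46 (SE 0.35) for shHIRA II.

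Ankrd1 encodes a nuclear and sarcomeric ankyrin-repeat protein best known from heart and muscle (chromosome 19, 36111961 to 36120099, minus strand, GRCm38). It was nearly absent from all cells that did not carry a hairpin against Hira. It had 14.1, 8.1, 8.5 and 1.0 estimated counts with shHIRA I and 10.7, 21.3, 4.1 and 16.5 with shHIRA II. All but 1 of the 8 shHIRA libraries held 4 or more. It was at 0 in all 4 shLuciferase libraries, and in shScramble and in parental cells a single library of 4 held 1.0 count. Summed after rounding, 85 counts over 8 shHIRA libraries stood against 1 count over 8 control libraries, a ratio of 92.2 after scaling to library totals (95% exact interval 16.1 to 3690, counting error only). Against shLuciferase alone, whose counts were 0, the ratio over both shHIRA groups was 15.5 with a floor set at 3 counts over the group. The lower 95% exact limit was 12.4, again for counting error only. The change was called with shHIRA I (adjusted p = 0.000663) and with shHIRA II (adjusted p = 0.000106). The fitted log2 fold change of 5.62 rests on these few counts and depends on how counts of 0 are handled. Even in the shHIRA libraries its level stayed between 0.0358 and 0.722 TPM, and shHIRA I replicate 4, the lowest of them, lay just under the shScramble library at 0.0363 TPM.

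Amotl2, an angiomotin-like scaffold protein at cell junctions that binds YAP and is itself a YAP target (chromosome 9, 102716672 to 102733418, plus strand, GRCm38), stood clear of the control libraries with both hairpins. Its level was 89.6, 83.1, 83.4 and 95.8 TPM with shHIRA I and 79.5, 63.8, 74.3 and 86.6 TPM with shHIRA II. It was 40.9, 50.7, 38.8 and 35.5 TPM with shLuciferase and 41.2, 28.4, 35.6 and 38.3 TPM with shScramble. The 2 sets of libraries did not overlap. Parental cells, at 45.8, 63.1, 37.0 and 55.2 TPM, overlapped the control libraries and stayed below every shHIRA library. Amotl2 was 2.00-fold higher with the Hira hairpins (log2 fold change 1.00, SE 0.10, adjusted p = 2.02e-06), with 1.10 (SE 0.12) for shHIRA I and 0.90 (SE 0.12) for shHIRA II.

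Axl, a receptor tyrosine kinase of the TAM family that is activated by the ligand Gas6 (chromosome 7, 25757273 to 25788705, minus strand, GRCm38), was called higher with shHIRA I alone. It ranged from 104 to 131 TPM with shHIRA I and from 70.7 to 115 TPM with shHIRA II, against 66.5 to 93.9 TPM with shLuciferase, 57.2 to 82.1 TPM with shScramble and 69.9 to 104 TPM in parental cells. All 4 shHIRA I libraries and 1 of the 4 shHIRA II libraries stood above every control library. Axl was 1.56-fold higher with shHIRA I (log2 fold change 0.65, SE 0.12, adjusted p = 0.000824). For shHIRA II the log2 fold change was 0.20 (95% interval -0.06 to 0.45, adjusted p = 0.228). The difference between the hairpins was itself called in edgeR's quasi-likelihood test, with Axl lower in shHIRA II than in shHIRA I by a log2 fold change of -0.45 (SE 0.14, adjusted p = 0.0288). Other settings moved that adjusted p above 0.05, among them all 3 fits on TPM (up to 0.0739) and leaving out shHIRA I replicate 4 (0.0677) or shHIRA II replicate 1 (0.122), 2 (0.0686) or 4 (0.0816). It was -0.39 (adjusted p = 0.0779) without the pair of lowest mitochondrial share.

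Among the contractile genes, Tagln was the one called higher in shHIRA II than in shHIRA I. Tagln encodes transgelin, also called SM22 alpha, an actin-binding protein of the calponin family that is a classical early marker of smooth muscle (chromosome 9, 45929619 to 45936058, minus strand, GRCm38). It stood at 6.94, 5.59, 2.84 and 4.02 TPM with shHIRA I and at 11.0, 10.1, 10.8 and 7.83 TPM with shHIRA II. The control libraries gave 1.89, 5.43, 1.55 and 1.45 TPM with shLuciferase and 2.03, 1.28, 1.12 and 1.10 TPM with shScramble, and parental cells 1.27, 1.59, 1.01 and 1.08 TPM. All 4 shHIRA II libraries were above every other library of the study, and 2 of the 4 shHIRA I libraries fell below shLuciferase replicate 2. Tagln was 3.42-fold higher with the Hira hairpins (log2 fold change 1.77, SE 0.26, adjusted p = 6.61e-05). It was 2.33-fold higher with shHIRA I (adjusted p = 0.00711) and 5.02-fold higher with shHIRA II (adjusted p = 1.87e-05). Set against shHIRA I, shHIRA II was higher by a log2 fold change of 1.11 (SE 0.36, adjusted p = 0.0326). That call did not hold when shHIRA I replicate 2, 3 or 4 or shHIRA II replicate 1, 2 or 3 was left out, with adjusted p between 0.0510 and 0.0881 and log2 fold changes between 0.98 and 1.14. Without the pair of lowest mitochondrial share it was 0.91 (adjusted p = 0.116). An antisense gene, Gm48529, lies on the opposite strand and holds 58.2% of the 31-base words of Tagln transcripts.

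Acta2, the actin isoform of smooth muscle and of myofibroblasts (chromosome 19, 34241090 to 34255590, minus strand, GRCm38), was called higher with both hairpins, with shHIRA II near the threshold. It was at 34.6, 54.4, 23.9 and 29.5 TPM with shHIRA I and at 21.0, 23.8, 32.4 and 21.0 TPM with shHIRA II. With shLuciferase it was at 8.70, 38.9, 10.8 and 8.63 TPM, with shScramble at 12.6, 8.19, 8.09 and 10.3 TPM, and in parental cells at 11.0, 13.0, 12.2 and 9.85 TPM. All 8 shHIRA libraries stood above 7 of the 8 control libraries, and 7 of them stood below shLuciferase replicate 2. The log2 fold change was 1.11 with the Hira hairpins (SE 0.26, adjusted p = 0.00382), 1.35 with shHIRA I (SE 0.30, adjusted p = 0.00397) and 0.86 with shHIRA II (SE 0.31, adjusted p = 0.0377). The call with shHIRA II was lost when parental replicate 1 or 3, shLuciferase replicate 1, 3 or 4, shScramble replicate 2, 3 or 4 or shHIRA II replicate 2 or 3 was left out (adjusted p between 0.0520 and 0.101). It was also lost without the pair of lowest mitochondrial share (0.0906) and with only the groups compared (0.0706). Against shLuciferase alone Acta2 was called with neither shHIRA I (edgeR's quasi-likelihood test, adjusted p = 0.0843) nor shHIRA II (0.317). Without shLuciferase replicate 2 the change with shHIRA II was stronger (1.27, adjusted p = 3.96e-05).

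Cnn1, calponin 1, which binds actin and restrains the myosin ATPase in smooth muscle (chromosome 9, 22099216 to 22109630, plus strand, GRCm38), was the member that was not called against the control hairpins. Its level was 0.418, 1.35, 0.442 and 0.678 TPM with shHIRA I and 0.416, 0.350, 0.745 and 0.318 TPM with shHIRA II. With shLuciferase it was 0.0754, 4.24, 0.0964 and 0.122 TPM, with shScramble 0.0399, 0.211, 0.122 and 0.0427 TPM, and in parental cells 0.10, 0.0510, 0.0946 and 0.0630 TPM. The shLuciferase library at 4.24 TPM was above all 8 shHIRA libraries, and the 7 other control libraries were below all 8. The log2 fold change with the Hira hairpins was 0.65 (SE 0.68, 95% interval -0.77 to 2.07, adjusted p = 0.505). Without shLuciferase replicate 2, a library singled out in part by its high Cnn1, the log2 fold change was 2.36 (adjusted p = 0.000503).

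Tpm1, tropomyosin 1, which winds along actin filaments and governs the access of myosin (chromosome 9, 67022590 to 67049406, minus strand, GRCm38), had the highest level of the 10 genes in every group. It was at 463, 411, 493 and 554 TPM with shHIRA I and at 330, 368, 390 and 355 TPM with shHIRA II. With shLuciferase it was at 190, 357, 227 and 232 TPM, and with shScramble at 216, 221, 214 and 247 TPM. The shHIRA I libraries were all above the control libraries, and 2 of the 4 shHIRA II libraries fell below shLuciferase replicate 2. Of the parental libraries, at 272, 412, 390 and 416 TPM, 3 lay in the range of the shHIRA libraries and 1 below it. Tpm1 was 1.66-fold higher with the Hira hairpins (log2 fold change 0.73, SE 0.13, adjusted p = 0.000508), with 0.93 (SE 0.16) for shHIRA I and 0.53 (SE 0.16, adjusted p = 0.0163) for shHIRA II. The call with shHIRA II was lost without shHIRA II replicate 2 (0.43, adjusted p = 0.0792) and when the mitochondrial share entered the model (0.41, adjusted p = 0.190). The tables hold 1 value a gene, so the many isoforms of Tpm1 were not separated.

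Myl9 encodes a regulatory light chain of smooth muscle and non-muscle myosin, whose phosphorylation starts contraction (chromosome 2, 156775420 to 156781658, plus strand, GRCm38). It was at 1.43, 3.84, 4.25 and 0.280 TPM with shHIRA I and at 4.54, 3.71, 2.88 and 2.26 TPM with shHIRA II. The control libraries gave 0.156, 0, 0.764 and 0.438 TPM with shLuciferase and 0.805, 0.178, 0.288 and 0 TPM with shScramble, and parental cells 0.491, 0.545, 0.572 and 0 TPM. All 4 shHIRA II libraries and 3 of the 4 shHIRA I libraries were above every control library, while shHIRA I replicate 4 lay within their range. Myl9 was 8.33-fold higher in the fit (log2 fold change 3.06, SE 0.66, adjusted p = 0.00206), from at most 37.9 estimated counts in a library. Without shHIRA I replicate 3 and shHIRA II replicate 2, the libraries of lowest mitochondrial share, the call with shHIRA I was lost (log2 fold change 2.23, adjusted p = 0.0544).

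**Figure D2:**
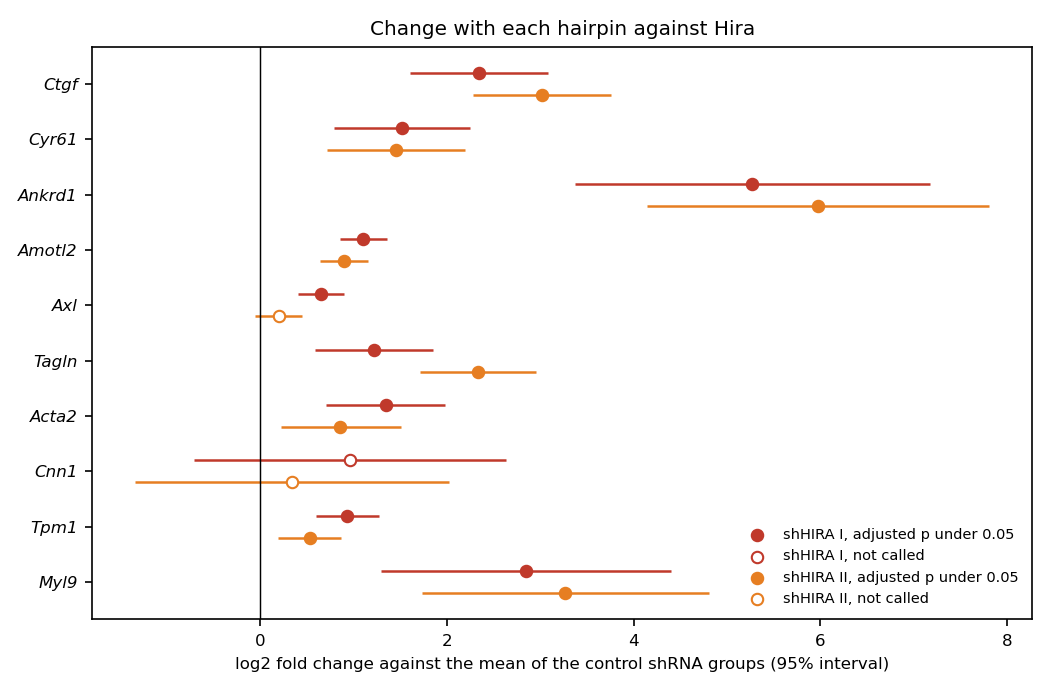
Log2 fold change (x axis) of each gene with shHIRA I and with shHIRA II against the mean of the control hairpin groups, with 95% intervals as lines. Filled points have an adjusted p under 0.05: all genes but Cnn1 with shHIRA I, and all but Axl and Cnn1 with shHIRA II.

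Between the hairpins, Tagln was called higher and Axl lower in shHIRA II than in shHIRA I, and the other 8 genes were not called, among 8.6% of all genes called higher and 12.4% lower. Several of these 8 had wide intervals, while that of Amotl2 ran from -0.51 to 0.10 on the log2 scale. For Ctgf the log2 fold change of shHIRA II minus shHIRA I was 0.68 (95% interval -0.20 to 1.56), for Cyr61 -0.06 (-0.94 to 0.81) and for Myl9 0.42 (-1.28 to 2.11). For Tpm1 it was -0.40 (-0.80 to -0.01, adjusted p = 0.140). Each shHIRA group was also set against each control hairpin singly. Of the 10 genes, Ctgf, Ankrd1 and Amotl2 were higher in all 4 of these pairings, as were 1.88% of all genes. Ankrd1 had passed the filter through the shHIRA libraries alone, so its place here is weak support. The number of the 10 genes higher in all 4 was 7 without shLuciferase replicate 2 and 5 without shHIRA I replicate 2 or 3. By edgeR's quasi-likelihood test, 0 of the 10 genes and 0.0% of all genes differed between the control hairpins, while DESeq2 called 4 of all genes between them. At an unadjusted p under 0.05 in edgeR's quasi-likelihood test, Tagln (0.0408) and Cnn1 (0.00434) were lower with shScramble than with shLuciferase.

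The library shLuciferase replicate 2 stood apart for a set of contractile genes. Cnn1 was 43.3 times the mean of the 3 other shLuciferase libraries (4.24 against 0.0978 TPM), Acta2 was 4.16 times (38.9 against 9.36 TPM) and Tagln 3.33 times (5.43 against 1.63 TPM). Other smooth muscle genes that were high in it were Actg2, a smooth muscle actin (5.87 times), Lmod1, leiomodin 1 (4.72 times), and Mylk, the kinase of myosin light chains (4.03 times); these were picked after their values were seen. Myl9 was at 0 in the same library, Des was 1.25 times and Myh11 1.06 times the mean of the others. Tpm2 was at 0 TPM there too, and the member Tpm1 was at 1.65 times. Of the YAP targets, Ctgf was at 2.06 times, a larger ratio than that of Tpm1. Its 3.27 TPM still lay within the range of the other control libraries (0.764 to 3.30 TPM). Tpm1, at 357 TPM, lay above theirs (190 to 247 TPM). Cyr61 was at 1.35 times, Amotl2 at 1.32 times and Axl at 1.31 times, and Ankrd1 was at 0 in the whole group. Leaving the library out raised the fitted change of Tagln with the Hira hairpins to 2.10, of Acta2 to 1.52 and of Cnn1 to 2.36 on the log2 scale, and moved Ctgf only to 2.85. As the library was singled out by high Tagln, Acta2 and Cnn1, a rise in their fitted changes follows from that choice.

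**Figure D3:**
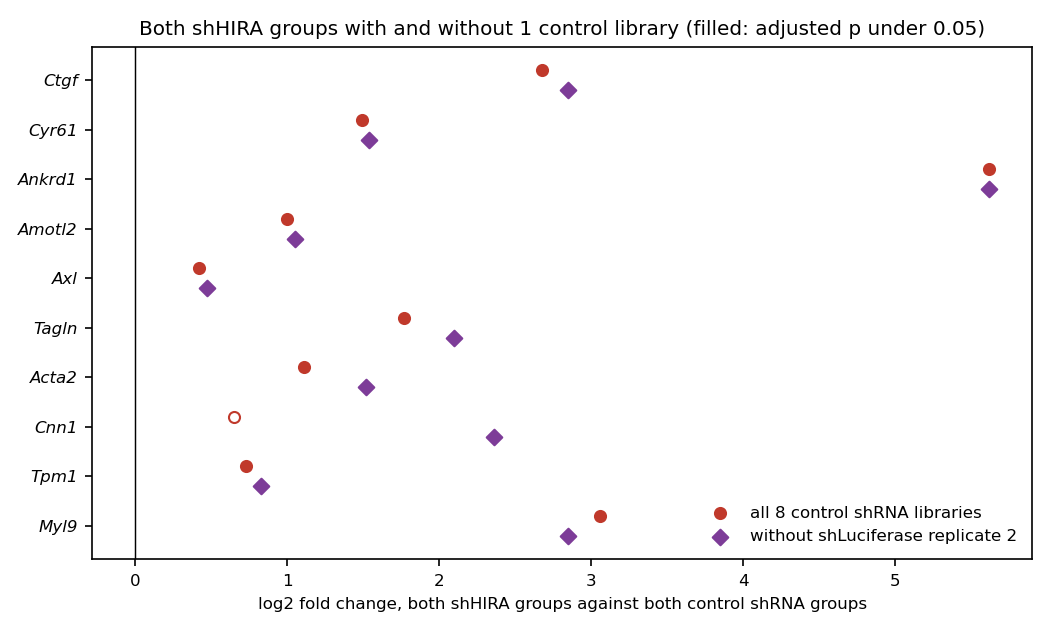
Log2 fold change with the Hira hairpins (x axis) of each gene with all 8 control libraries (circles) and without shLuciferase replicate 2 (diamonds); filled symbols have an adjusted p under 0.05. Cnn1 moves from 0.65, not called, to 2.36, called, and Ctgf from 2.68 to 2.85.

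Parental cells give a second point of reference that holds no virus. Transduction with control hairpins went with lower Tpm1, by a log2 fold change of -0.72 (SE 0.16, adjusted p = 0.0162), and with lower Amotl2, by -0.45 (SE 0.12, adjusted p = 0.0471), while the 8 other genes were not called. Of all genes, 1.57% were lower and 2.05% higher in the control hairpin groups than in parental cells. The Amotl2 call was lost in most other settings (adjusted p up to 0.287). Of single libraries left out, it held without parental replicate 3, shLuciferase replicate 2, shScramble replicate 1 or shHIRA I replicate 2 or 3, and was lost without any other. The Tpm1 call was lost without parental replicate 2, 3 or 4 (adjusted p between 0.0542 and 0.0713). Against parental cells, the shHIRA groups had 6 of the 10 genes higher (background 12.5%) and 0 lower (background 12.0%). These were Ctgf (log2 fold change 2.08, SE 0.40), Ankrd1, Amotl2 (0.55, SE 0.13), Tagln (2.29, SE 0.35), Acta2 (1.17, SE 0.33) and Myl9 (2.63, SE 0.85). Ankrd1 and Myl9 had passed the filter through the shHIRA libraries alone, so their calls are weak support here too. For Ankrd1, 85 summed counts stood against 1 count in parental cells, a ratio of 47.8 after scaling to library totals (95% exact interval 8.35 to 1910). Cyr61 (0.80, adjusted p = 0.132), Axl (0.11, adjusted p = 0.539) and Tpm1 (0.01, 95% interval -0.33 to 0.35, adjusted p = 0.976) were not called. Cnn1, at 2.56 (SE 0.98, adjusted p = 0.0633), missed the threshold, and passed it without any 1 of the shLuciferase libraries (adjusted p between 0.00205 and 0.0484) or with the mitochondrial covariate (3.38, adjusted p = 0.0187), although all 8 shHIRA libraries exceeded all 4 parental libraries, as they did for 6 of the 10 genes and for 7.79% of all genes. Of the 6 genes whose libraries did not overlap, Ankrd1 and Cnn1 had passed the filter through the shHIRA libraries. The comparisons against parental cells share the parental libraries, and those of the Hira hairpins share the shHIRA libraries. Myl9 lost its call when any 1 parental library was left out (adjusted p between 0.0594 and 0.0832) and when the mitochondrial share entered the model (2.26, adjusted p = 0.0704), and Acta2 without parental replicate 4 (0.0567).

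**Figure D4:**
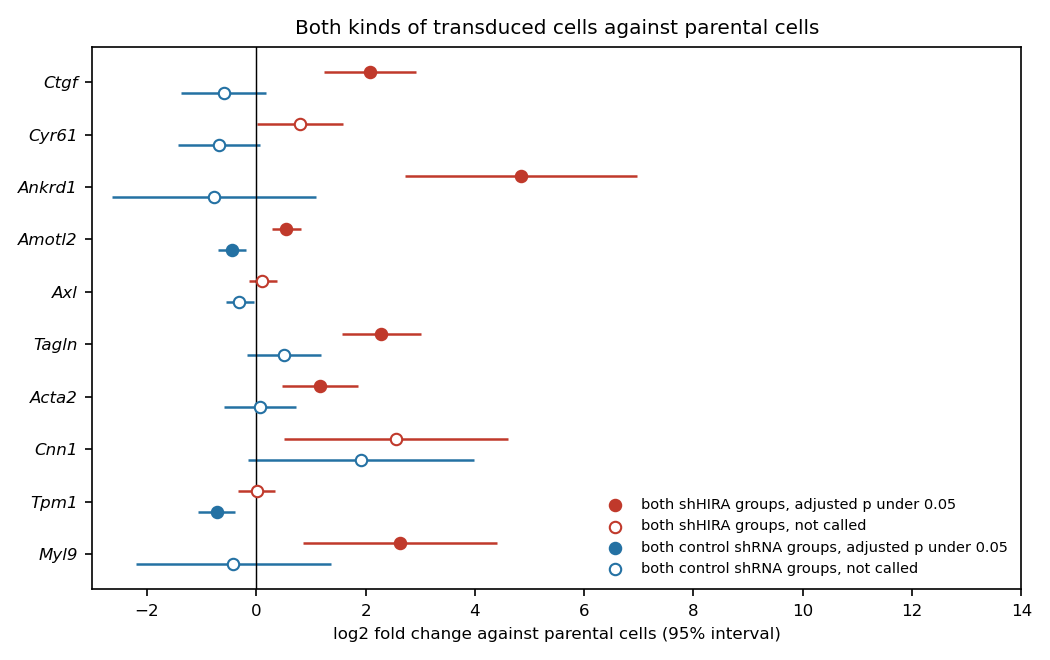
Log2 fold change (x axis, 95% intervals as lines) against parental cells of both shHIRA groups and of both control hairpin groups; filled points have an adjusted p under 0.05. The shHIRA groups are filled for 6 genes, all higher, and the control groups for Amotl2 and Tpm1, both lower.

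In levels per transcript length, the 10 genes kept a wide spread. With shHIRA I the order of means was Tpm1 (480 ± 59.8 TPM), Axl (121 ± 12.1), Amotl2 (88.0 ± 6.04), Cyr61 (62.7 ± 38.3), Acta2 (35.6 ± 13.3), Ctgf (9.42 ± 3.42), Tagln (4.85 ± 1.80), Myl9 (2.45 ± 1.91), Cnn1 (0.722 ± 0.435) and Ankrd1 (0.320 ± 0.218), each as mean and SD of 4 libraries. Tpm1 and Axl, Axl and Amotl2, and Acta2 and Ctgf stood apart by more than the sum of their SDs, and the other neighbours in this order did not. In parental cells Tpm1 averaged 372 ± 68.1 TPM, Axl 84.5 ± 14.2, Amotl2 50.3 ± 11.3, Cyr61 29.7 ± 7.86, Acta2 11.5 ± 1.39, Ctgf 2.43 ± 0.658 and Tagln 1.24 ± 0.259 TPM. Myl9 averaged 0.402 ± 0.270 TPM there, and Cnn1 and Ankrd1 were at most at 0.10 TPM in its 4 libraries.

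Over the 20 libraries the 45 pairs of members correlated at r between 0.297 and 0.895, and at -0.266 to 0.831 after the group means were removed. These are a description of log2 CPM (counts scaled to library size), whose points share library and depth. Ctgf and Cyr61 correlated at r = 0.895, and at 0.831 after the group means were removed. Tagln, Acta2 and Cnn1 correlated within groups at 0.823 for Tagln with Acta2, 0.814 for Acta2 with Cnn1 and 0.665 for Tagln with Cnn1, where shLuciferase replicate 2 is among the points. Within groups, Ctgf was at 0.528 with Tagln and at 0.349 with Acta2, and Myl9 at -0.26 with Ctgf and -0.076 with Tagln. Of all other genes tested, those most like Ctgf over the 20 libraries were Schip1 (r = 0.972, Spearman 0.944), Jdp2 (0.933, 0.908), Ccdc86 (0.931, 0.916), Sh2d4a (0.926, 0.884) and Lhfp (0.926, 0.878). Schip1 also had the highest within-group correlation with Ctgf of any other gene (0.886), and was itself higher with the Hira hairpins (log2 fold change 1.91, SE 0.20, adjusted p = 2.06e-06). Most like Tagln were Cdsn (r = 0.940, Spearman 0.777), Kcnh2 (0.928, 0.860), Mettl7b (0.926, 0.821), Samhd1 (0.917, 0.833) and Nfil3 (0.913, 0.776).

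Among the regulators of these genes, neither coactivator was called with the Hira hairpins in edgeR's quasi-likelihood test. Yap1 averaged 56.6 TPM with shHIRA I and 45.6 TPM with shHIRA II, against 46.4 TPM with shLuciferase and 41.1 TPM with shScramble (log2 fold change 0.10, SE 0.11, adjusted p = 0.524). Wwtr1, the gene of TAZ, had a log2 fold change of 0.23 (SE 0.15, adjusted p = 0.264). It was called when the mitochondrial share entered the model (0.62, adjusted p = 0.00248) and without the pair of libraries where that share was lowest (0.35, adjusted p = 0.0495). Of the 8 genes of YAP, TAZ, the TEAD factors and their VGLL cofactors, 3 rose and 0 fell, with a list median of 0.35, beside 14.2% of all genes higher and 15.1% lower. Tead2 rose by 0.94 (SE 0.18, adjusted p = 0.000789), Tead3 by 0.66 (SE 0.18, adjusted p = 0.0118) and Vgll3 by 0.84 (SE 0.24, adjusted p = 0.0125). Tead1 (0.37, adjusted p = 0.204) and Tead4 (0.33, adjusted p = 0.0758) did not pass, and passed without the pair of lowest mitochondrial share (0.57, adjusted p = 0.00957, and 0.46, adjusted p = 0.00502). Tead2 was not called with the mitochondrial covariate (0.35, adjusted p = 0.0972). The levels of mRNA say nothing of where the YAP and TAZ proteins were.

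Of 22 tested Hippo kinases and upstream regulators, 4 rose and 3 fell, with a median of 0.11. These shares are near those of all genes, 14.2% higher and 15.1% lower. Ajuba, a LIM protein that binds LATS kinases, rose by 1.64 (SE 0.17, adjusted p = 2.93e-06), and Stk4, the kinase MST1, by 0.60 (SE 0.14, adjusted p = 0.00390). Fat4, an atypical cadherin, and Wwc2 rose as well, the call of Wwc2 being lost in 19 of the other settings. Taok3 fell by 0.66, Lats1, a kinase that phosphorylates YAP, fell by 0.51 and Mob1a, its activator, fell by 0.46 on the log2 scale (adjusted p = 0.00333, 0.0305 and 0.0177). With the mitochondrial covariate none of these falls was called, at -0.40 for Taok3 (adjusted p = 0.0971), -0.11 for Lats1 (0.681) and -0.19 for Mob1a (0.430). Lats1 and Mob1a were also lost in the limma fits (adjusted p between 0.114 and 0.196), and Lats1 without shScramble replicate 4 (0.0550) or shHIRA II replicate 2 (0.0622). Lats2, a kinase of the same pathway that is also a YAP target, had 0.38 (SE 0.20, adjusted p = 0.156), and was called with the mitochondrial covariate (0.89, adjusted p = 0.00281) and without the pair of lowest share (0.51, adjusted p = 0.0478). Beyond the members, 2 of 13 tested YAP and TAZ target genes rose and 0 fell, Ccdc80 (3.02, SE 0.67, adjusted p = 0.00232) and Rbms3 (0.78, SE 0.21, adjusted p = 0.00829), and the list median was 0.34; the share that rose is near the 14.2% of all genes. In the rest of the CCN family, Wisp2 rose (1.04, SE 0.35, adjusted p = 0.0317), a call lost in 10 other settings, among them the mitochondrial covariate (0.50, adjusted p = 0.468) and leaving out shLuciferase replicate 1 or 4, shScramble replicate 3 or 4, shHIRA I replicate 3 (0.70, adjusted p = 0.0976) or shHIRA II replicate 4. In the same family Nov (-0.63, adjusted p = 0.0705) and Wisp1 (-0.25, adjusted p = 0.256) were not called. The angiomotins Amot and Amotl1 each had 0.42 and were not called. Of the TAM receptors and their ligands, Tyro3 fell by 0.77 (SE 0.10, adjusted p = 1.58e-05), and Mertk (0.32, adjusted p = 0.375) and the Axl ligand Gas6 (-0.13, adjusted p = 0.364) were not called.

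None of the SRF group was called over both hairpins. Srf had -0.08 (SE 0.10, adjusted p = 0.598, and 0.02 in the limma fits on TPM), Mkl1, myocardin-related factor A, 0.15 (SE 0.15, adjusted p = 0.491) and Mkl2 -0.34 (SE 0.19, adjusted p = 0.185). The hairpins differed here: Mkl1 was higher with shHIRA I (0.67, adjusted p = 0.0126) and Mkl2 lower with shHIRA II (-0.74, adjusted p = 0.0245). Both were lower in shHIRA II than in shHIRA I (Mkl1 -1.05, adjusted p = 0.00227; Mkl2 -0.79, adjusted p = 0.0445). Myocd, myocardin itself, was too low to be tested. In the wider contractile list, 8 of 17 tested genes rose and 0 fell, with a median of 0.58, beside 14.2% of all genes called higher and 15.1% lower. Desmin (Des) rose by 1.26 (SE 0.24, adjusted p = 0.000789) and Tpm4, a non-muscle tropomyosin, by 0.91 (SE 0.18, adjusted p = 0.000879). The other risers were Tpm3, Cald1, Cnn3, Tagln2, Myl12a and Myh10. The mitochondrial covariate ended the calls of Tpm3 (-0.02, adjusted p = 0.974) and Tagln2 (0.41, adjusted p = 0.313), and that of Tagln2 was lost in 19 settings in all. Myh11, the heavy chain of smooth muscle myosin, had -1.15 (SE 1.18, adjusted p = 0.496). Of 20 stress fibre and focal adhesion genes, 11 rose and 1 fell, with a median of 0.53, beside 14.2% of all genes higher and 15.1% lower. Palld, palladin of actin bundles, rose by 1.38 (SE 0.20, adjusted p = 5.87e-05) and Pxn, paxillin, by 0.73 (SE 0.11, adjusted p = 7.22e-05), while Lima1 fell by 0.48 (SE 0.14, adjusted p = 0.0140). The Lima1 call was lost in the limma fits (adjusted p between 0.0848 and 0.130) and with the mitochondrial covariate (-0.20, adjusted p = 0.338). Zyx, zyxin, which is recruited to tense fibres, was named after its values were seen and rose by 1.14 (SE 0.18, adjusted p = 0.000165).

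Of the TGF-beta receptors and SMADs, which carry another signal known to switch on contractile genes, Smad4 rose by 0.46 (SE 0.10, adjusted p = 0.00137). Smad3 fell by 0.98 (SE 0.16, adjusted p = 0.000201) and the receptor Tgfbr2 by 0.84 (SE 0.15, adjusted p = 0.000333). The lists differ in size and share members, and no test compared them with other genes.

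**Figure D5:**
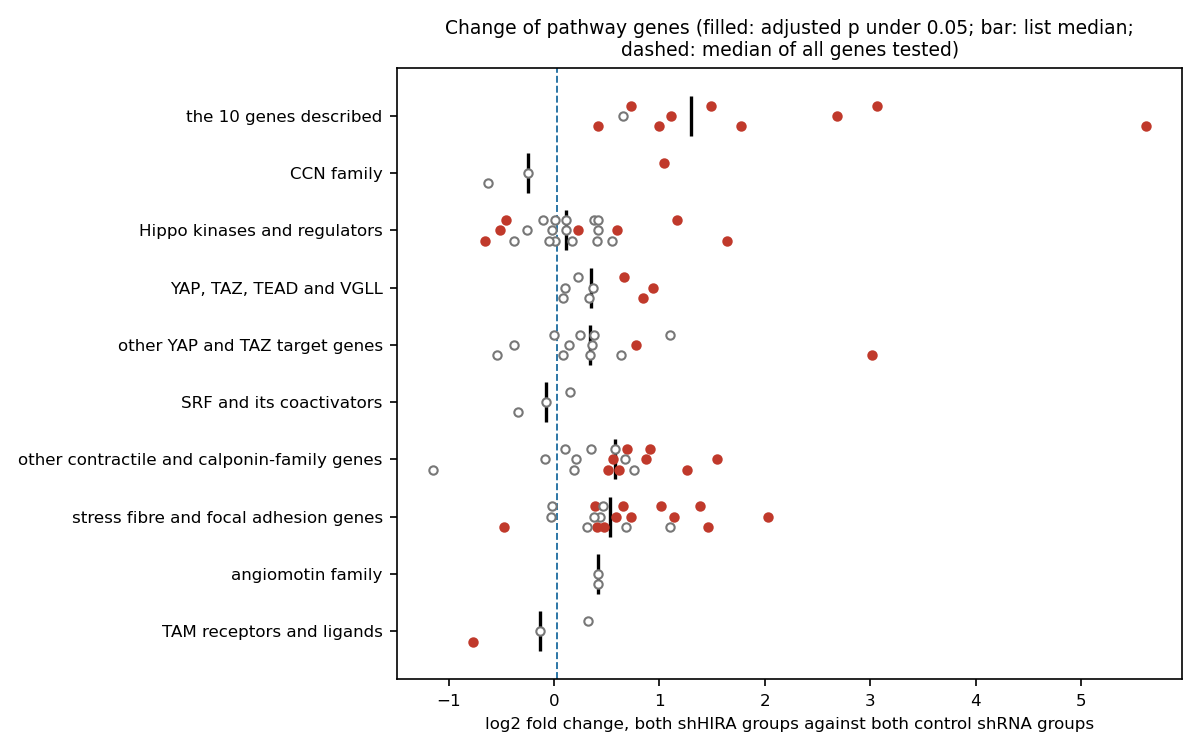
Log2 fold change with the Hira hairpins (x axis) of each tested gene of 9 pathway lists and of the 10 genes described, 1 point a gene, filled where the adjusted p is under 0.05; the bar is the list median and the dashed line the median of all genes tested, 0.03. The contractile list (median 0.58) and the stress fibre list (median 0.53) lie to the right of the dashed line, and the SRF group (median -0.08) holds no filled point in this average over both hairpins.

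Markers of other cells were examined because contractile genes are also those of smooth muscle, pericytes and fibroblasts. Of 9 smooth muscle and pericyte markers, 4 reached 1 TPM in some library, and they summed to 10.5 to 22.1 TPM with shHIRA I and 4.26 to 7.16 TPM with shHIRA II, against 3.63 to 8.69 TPM with shLuciferase, 2.79 to 6.19 TPM with shScramble and 2.65 to 3.56 TPM in parental cells. Rgs5, Myocd, Synpo2, Kcnmb1 and Abcc9 stayed under 1 TPM in every library. Of 8 fibroblast markers, 6 reached 1 TPM, with sums of 55.9 to 122 TPM with shHIRA I and 7.89 to 15.9 TPM with shHIRA II, against 23.4 to 48.1 TPM with shLuciferase, 22.7 to 35.3 TPM with shScramble and 21.4 to 37.3 TPM in parental cells. The fibroblast sum was above the controls with shHIRA I and below them with shHIRA II. Dcn was its largest part with shHIRA I, at a mean of 52.9 TPM, and was 3.66 TPM with shHIRA II. It was 19.3 TPM with shLuciferase and 18.9 TPM with shScramble. Not every marker followed the sum. Lum was lower with shHIRA I (0.981 TPM) than with shLuciferase (1.53) or shScramble (1.54). Pdgfrb was higher with shHIRA II (3.76 TPM) than with shLuciferase (3.42) or shScramble (2.28). The smooth muscle sum was above the controls with shHIRA I, and with shHIRA II it overlapped them. What part cells of such types had in the values was not tested.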

How the data were processed

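Genome build mm10 and the tools bcl2fastq, kallisto and edgeR are named in the submitters' processing notes, with no versions, and neither annotation nor strand setting is given in the sources used here. The authors deposited a table of estimated counts per gene and a table of TPM. The estimated counts equal TPM times 1 length per gene and 1 factor per library (12767 genes, 99% within 1e-06 on the log2 scale). TPM sums ran from 793366 to 864638 per library. Columns named Ctl were mapped to parental cells, and columns named shHIRA without a numeral to shHIRA I, since no other group was left for them. In 27 rows a date replaced the gene name, and 6990 rows were 0 in every library.

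Estimated counts were rounded and tested with edgeR 4.0.16 (quasi-likelihood, TMM, default filter by group, a group-means model over all 20 libraries, Benjamini-Hochberg adjusted p under 0.05 over 13541 genes). Alternatives were other scalings and filters, DESeq2 1.42.0, limma 3.58.1 on log2(TPM + 0.5 or 0.1), fewer groups, the mitochondrial share as covariate, the replicate number as a block, and each library left out. The script was tested on simulated data. Single values were compared by exact permutation tests. Positions came from GENCODE M21 (GRCm38), and shared 31-base words from its transcripts.

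The members, the lists and the tests were chosen with earlier results of these data known. Named genes are the members, Hira, a set of regulators, the 2 genes of each list with the lowest adjusted p in each direction, and the 5 most like Ctgf and Tagln. The counts of a pair of the pathway lists and some of their genes are not reported here. Intervals of counts cover counting error only.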

Additional observations from a re-analysis of the deposited data

Results flagged for a closer look

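Single libraries stood far from the other 3 of their group in 8 of 54 groups examined, by a test with a nominal rate of about 1 in 20 groups. That rate holds for normal values and independent groups. Levels near 0 and genes read in the same libraries do not meet this, so the 8 cannot be set against it. In shLuciferase, replicate 2 was far above the rest for Tagln (5.43 TPM), Acta2 (38.9 TPM) and Cnn1 (4.24 TPM). In shScramble, replicate 1 was far above the rest for Ctgf (3.30 TPM), Cyr61 (34.9 TPM) and Ankrd1 (0.0363 TPM, a single count). In parental cells, replicate 4 was the sole library with a count of Ankrd1 (0.0337 TPM) and the sole one with Myl9 at 0 TPM. Both flags of Ankrd1 were fixed in advance, as any count beside 3 libraries at 0 is flagged.

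The hairpins against Hira differed for Axl (log2 fold change of shHIRA II minus shHIRA I -0.45, SE 0.14, adjusted p = 0.0288, higher in shHIRA I) and for Tagln (1.11, SE 0.36, adjusted p = 0.0326, higher in shHIRA II), both in edgeR's quasi-likelihood test of the difference itself. The mitochondrial share was 4.19% ± 0.876 in shHIRA II and 5.70% ± 3.44 in shHIRA I (SD, n = 4 each). With that share in the model, Axl was at -0.45 (adjusted p = 0.0298) and Tagln at 1.28 (adjusted p = 0.0151). Without the pair of libraries where it was lowest, Axl was at -0.39 (adjusted p = 0.0779) and Tagln at 0.91 (adjusted p = 0.116).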

How the results depend on the processing

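With the Hira hairpins, between 7 and 10 of the 10 genes were higher and 0 lower in every setting run; the 7 came from a filter of 50 counts in 4 libraries, which removed members of low counts, and the 10 from leaving out shLuciferase replicate 2. With shHIRA I the number ran from 7 to 10 and with shHIRA II from 6 to 9. The number higher with both hairpins against both controls, 3 as reported, was 5 with RLE scaling and 6 with upper-quartile scaling, DESeq2 or the replicate block, and 3 to 7 when single libraries were left out. Between the hairpins, 0 members were higher without shHIRA I replicate 3 and shHIRA II replicate 2, the libraries of lowest mitochondrial share, and 0 lower there, without the filter on low counts, in all 3 limma fits on TPM and with only the groups compared; with single libraries left out each was 0 to 1. In control hairpins against parental cells, 1 member was lower, in place of 2, with RLE or upper-quartile scaling, no filter, the stricter filter, limma on TPM and the replicate block, and 0 to 2 with single libraries left out.

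Over all genes, the 2671 calls with shHIRA I became 1777 with only the groups compared, and the 4394 with shHIRA II became 2767 with the mitochondrial share as covariate. The 2845 between the hairpins became 1088 with only the groups compared and 1997 to 4430 with single libraries left out. The 490 between control hairpins and parental cells became 868 with DESeq2, 270 with limma on TPM without a filter, 880 with only the groups compared, 798 with the mitochondrial covariate, 844 without the pair of lowest mitochondrial share and 214 to 791 with single libraries left out. Between the control hairpins the number went from 0 to 4 with DESeq2, to 1 with limma on log2(TPM + 0.5) or with only the groups compared, and to 0 to 1 with single libraries left out. The share of calls that were higher moved in the limma fits, which change the table and the test together and in 1 fit the filter as well. They gave 62.5% to 72.1% in place of 55% for shHIRA I, 58.9% to 65.2% in place of 48.5% for shHIRA II, 74.8% to 77.3% in place of 56.7% for control hairpins against parental cells and 72.2% to 78.6% in place of 51% for shHIRA groups against parental cells, where the median of all genes stood at 0.11 in both filtered fits in place of 0.01. The causes were not tested.

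No called change of a member reversed its sign. Tpm3, called higher with the Hira hairpins, was at -0.02 with the mitochondrial covariate. The sign of values that were not called did change. For Cyr61 in shHIRA II minus shHIRA I (-0.06) it was 0.10 in the limma fits, 0.02 with the replicate block and -0.29 to 0.21 with single libraries left out. For shScramble minus shLuciferase, single libraries moved Ankrd1 between 0.00 and 1.91, Acta2 between -0.90 and 0.15, Cnn1 between -4.06 and 0.04, Tpm1 between -0.18 and 0.14 and Myl9 between -0.76 and 0.78; Myl9 (0.03) was also -0.04 or -0.07 in the limma fits and -0.14 with the replicate block. For control hairpins minus parental cells, Ankrd1 ran from -1.57 to 0.80 and Acta2 (0.06) from -0.35 to 0.17 with single libraries left out, and Acta2 was -0.01 in the limma fits, -0.02 with the replicate block and -0.09 with the mitochondrial covariate. Tpm1 with the Hira hairpins minus parental cells (0.01) was 0.00 without a filter, -0.07 with the mitochondrial covariate, -0.11 without the pair of lowest mitochondrial share and -0.11 to 0.06 with single libraries left out. Srf (-0.08) was 0.02 in the limma fits and -0.14 to -0.02 with single libraries left out.

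With the replicate block, Cnn1 of shHIRA groups against parental cells was called (2.47, adjusted p = 0.0418) and Amotl2 of control hairpins against parental cells was lost (-0.45, adjusted p = 0.0611); no other call of a member changed in the 7 comparisons. Same-numbered libraries deviated together in part: 40 pairs had a median r of 0.067 (from -0.306 to 0.423), with 17 over 0.1. Among 120 pairs of different number the median was -0.023, with 16 over 0.1. The 10 pairs of replicate 1 ran from 0.032 to 0.414. The labels do not say what was repeated, so the main model did not take the numbers to pair the samples. For 13 of 20 libraries the library most like it in another group had the same number, which is a hint from the data and not from the design. Depth limits Ankrd1, Cnn1 and Myl9, which had fewer than 50 estimated counts in nearly every library.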
